A study of Mus musculus with 4 samples.

Results

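An array of closely spaced ChIP-seq peaks on mouse chromosome 8 was examined in mouse embryonic stem (mES) cells of the E14 line, strain 129/Ola. Its members were chosen by the listed start of each peak: every peak on chromosome 8 (mm9) that starts at or after 19 Mb and before 20 Mb was taken. From the Dzip3 list 203 of 6482 peaks met the rule, from the Ring1B list 199 of 10119, from the ubH2A list 193 of 6642 and from the input list 136 of 6804. These make 731 of 30047 peaks. The window was selected on its peak counts, so the counts and the density are given as a description. The cells were kept in 2i medium (1 μM PD0325901, a MEK inhibitor, and 3 μM CHIR99021, a GSK inhibitor) with 1000 U/ml LIF and were fixed for 10 min in 1% formaldehyde. Chromatin was pulled down with antibodies against Dzip3, Ring1B or ubH2A (mono-ubiquitylated histone H2A), and input DNA was sequenced without pull-down. All 4 libraries come from the same untreated line and there is 1 library per target, so no difference between libraries has a replicate error and intervals cover counting error only. The implied library sizes ran from 48.3 to 67.0 M reads. Input DNA is the control used here.

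Ring1B is the catalytic subunit of polycomb repressor complex 1 and places ubiquitin on H2A, a mark found at many silent developmental genes with CpG-rich promoters. Dzip3 is another RING-type E3 ligase that acts on H2A. Segmental duplications are long stretches of DNA present in several nearly identical copies. A short read from such DNA aligns equally well to more than 1 place, so the reads assigned to a copy depend on how the aligner treats such reads, and copies that an assembly lacks add their reads to those that it holds. The start of the window is known for beta-defensins, small antimicrobial peptides of epithelia, and for the Spag11 genes of the epididymis.

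The sequences that carry the results below are given here from mm9, and capitals mark the bases that differ from the first sequence of each set. The 120 bases at the centre of the highest peak of the window lie in introns of 2610005L07Rik, AC152164.1 and Gm17279, at chr8:19927135-19927254 on the plus strand. The inverted copy of this stretch lies between genes, at chr8:19759519-19759638 on the minus strand, and differed in 1 base.
highest peak: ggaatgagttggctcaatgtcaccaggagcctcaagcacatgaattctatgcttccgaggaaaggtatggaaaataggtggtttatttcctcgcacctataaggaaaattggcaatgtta
inverted copy: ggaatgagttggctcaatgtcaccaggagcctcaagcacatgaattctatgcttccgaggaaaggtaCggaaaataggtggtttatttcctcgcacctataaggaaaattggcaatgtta
The same peak holds a tandem repeat with a unit of 156 bp, shown because its units recur head to tail inside the highest peak. It was chosen after its values were seen. The 3 units printed are contiguous on the plus strand, from chr8:19925940-19926095 through chr8:19926096-19926251 to chr8:19926252-19926407. Unit 2 differed from unit 1 in 10 bases, and unit 3 differed from it in 11.
unit 1: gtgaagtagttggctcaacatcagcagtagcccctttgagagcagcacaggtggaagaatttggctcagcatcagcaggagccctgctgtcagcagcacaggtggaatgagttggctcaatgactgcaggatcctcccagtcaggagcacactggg
unit 2: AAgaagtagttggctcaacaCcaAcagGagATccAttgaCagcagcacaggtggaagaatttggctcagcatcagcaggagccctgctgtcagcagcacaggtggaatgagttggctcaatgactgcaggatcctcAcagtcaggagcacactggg
unit 3: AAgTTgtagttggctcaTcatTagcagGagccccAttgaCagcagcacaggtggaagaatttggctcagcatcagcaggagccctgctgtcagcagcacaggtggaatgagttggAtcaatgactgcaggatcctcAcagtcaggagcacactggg
The last set comes from the centre of the Ring1B peak with the highest ratio to input DNA, also chosen after its values were seen. It lies in an exon of the pseudogene Gm10060, at chr8:19784891-19785010 on the plus strand. Its copies lie on the minus strand in exons of 6820431F20Rik, at chr8:19892742-19892861, and of 2610005L07Rik, at chr8:20020021-20020129. The first copy differed in 3 bases, and the second in 1 base and by the lack of 11 bases. The 3 stretches held 13, 13 and 12 CpG dinucleotides.
Gm10060 site: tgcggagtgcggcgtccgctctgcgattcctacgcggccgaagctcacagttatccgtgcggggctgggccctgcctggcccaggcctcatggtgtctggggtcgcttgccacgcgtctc
6820431F20Rik site: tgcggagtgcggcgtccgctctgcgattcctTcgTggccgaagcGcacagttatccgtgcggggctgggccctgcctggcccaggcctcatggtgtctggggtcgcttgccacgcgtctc
2610005L07Rik site: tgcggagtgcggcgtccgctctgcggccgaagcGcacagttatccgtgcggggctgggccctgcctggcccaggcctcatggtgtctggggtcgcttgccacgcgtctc

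The peaks did not fill the window. All but 1 of the 731 lay in a segmentally duplicated stretch that begins at chr8:19678444 and runs up to an unsequenced gap at chr8:20038714-22038713. The first peaks of the stretch started 1834 bp (input DNA), 2709 bp (ubH2A), 3887 bp (Ring1B) and 3964 bp (Dzip3) after its first base. The 678 kb of the window before the duplicated stretch held 1 ubH2A peak, at chr8:19635170-19635434, with 72 ubH2A, 12 Dzip3, 2 Ring1B and 10 input reads. The duplicated stretch contains a second gap, chr8:19803129-19853128, which leaves 272 kb of sequence within the window. Dzip3 peaks covered 47.7% of that sequence, Ring1B peaks 46.9%, ubH2A peaks 58.2% and input peaks 78.0%. The upper end of the window falls inside the array: a further 30 Dzip3, 31 Ring1B, 35 ubH2A and 11 input peaks followed before the large gap. These are not members. The last Dzip3 peak inside the limit started at chr8:19999808 (height 0.619 RPM, the reads at its summit per 1 M reads of the library) and the first one outside it at chr8:20000488 (1.73 RPM). For Ring1B these were at 19999752 (0.947 RPM) and 20000574 (1.31 RPM), for ubH2A at 19999622 (1.06 RPM) and 20000465 (1.36 RPM), and for input DNA at 19999035 (1.43 RPM) and 20003057 (1.47 RPM).

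**Figure D1:**
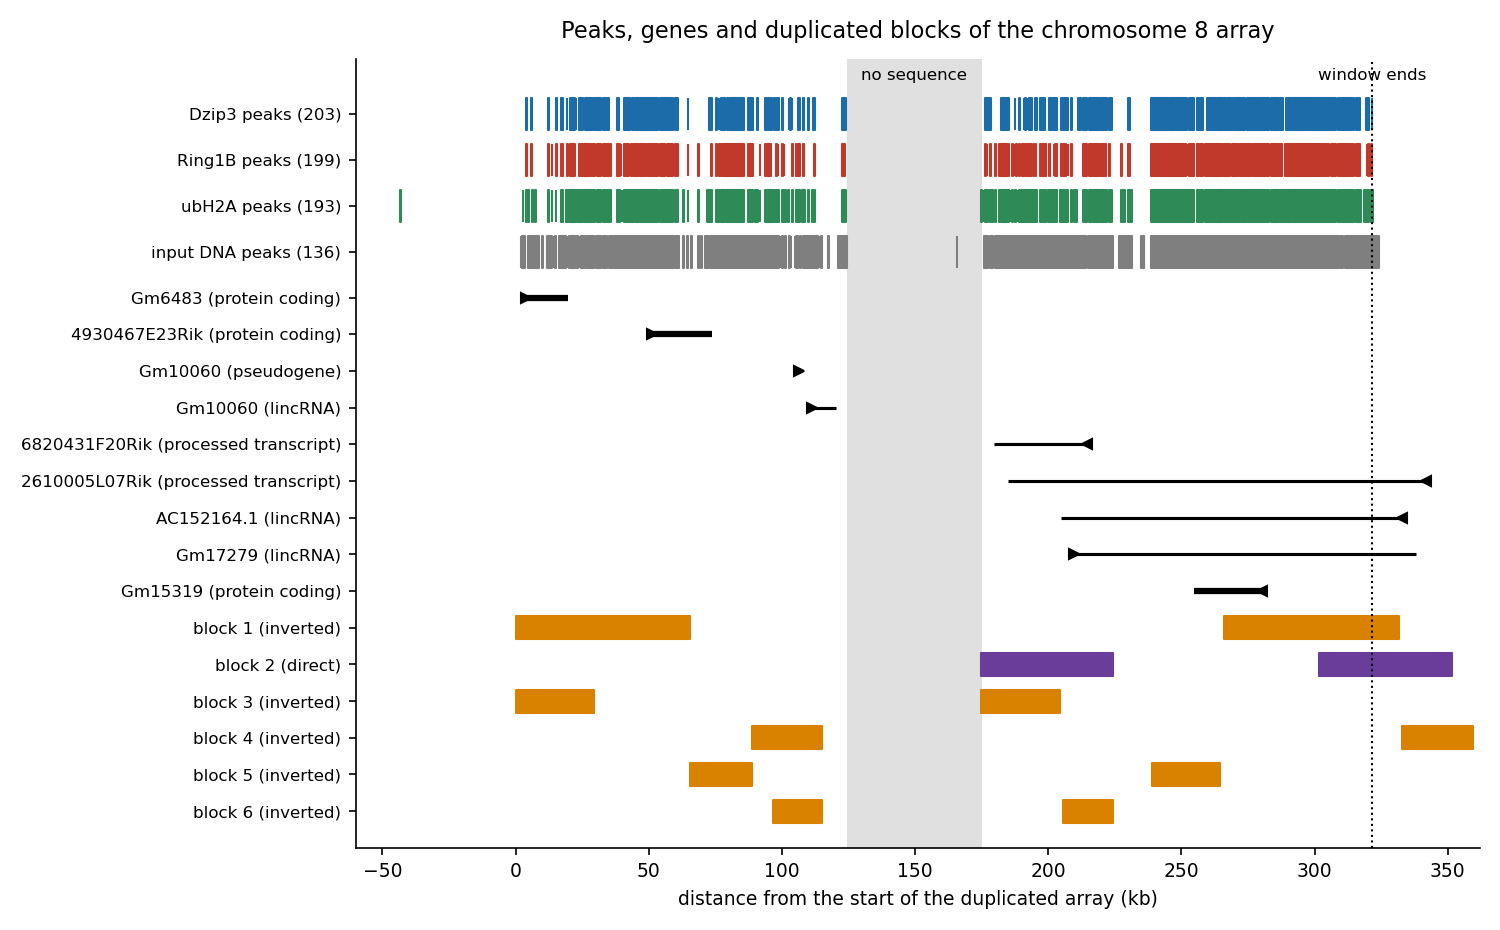
Map of the array with the distance from its start in kb on the horizontal axis. Bars in the upper 4 rows are peaks of each list, black lines are annotated genes with an arrowhead at the start of transcription (thick lines are protein-coding), and orange and purple bars are the 2 copies of each duplicated block in inverted and direct orientation. The peaks begin with the duplicated sequence, and 1 ubH2A peak lies before it.

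The reference sequence of the array was aligned to itself, which gave 6 blocks of at least 15 kb with 98.28% to 98.96% identity between their copies. The longest block paired chr8:19678444-19743771 with an inverted copy at chr8:19944574-20010115. Among the 6, 5 were inverted and 1 was direct, the latter pairing chr8:19853129-19902702 with chr8:19980142-20030166, a shift of 127 kb. Of the 31-base words of the array within the window, 87.3% occurred more than once in mm9, and the median word had 4 copies. Before the array 29.9% of words occurred more than once. Over the whole array up to the large gap, 82.2% of words were found again on chromosome 8, 51.3% on unplaced sequence of the assembly and 23.6% on another chromosome. The number of copies in 129/Ola cells was not measured.

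All 4 libraries, input DNA included, were high over this sequence. In the 135 input peaks of the array that lie in sequenced DNA (215 kb), input DNA had 351 reads per kb, which was 19.02 times its genome mean of 18.4 reads per kb. Dzip3 was at 20.7, Ring1B at 19.4 and ubH2A at 20.8 times their genome means in the same regions. Summed and scaled to library size, the reads in these regions came to 1694 RPM for Dzip3 (95% Poisson interval 1683 to 1705), 1588 for Ring1B (1577 to 1599), 1702 for ubH2A (1692 to 1712) and 1558 for input DNA (1547 to 1569). The ratio of these sums to input DNA was 1.09, 1.02 and 1.09. The sums include the input peak chr8:19923652-19925879, which alone had 132 Dzip3, 129 Ring1B, 118 ubH2A and 27.2 input RPM. Sums without it were not taken. The input interval does not overlap those of the ChIP libraries, but no replicate error stands beside these values. The regions are peaks of the input list, so high input DNA in them follows from their choice. The ratios to input in them carry the same choice. In the Dzip3 peaks of the array the median input level was 7.06 RPM per kb, against a genome mean of 0.382. Over single regions the ratio spread further than its sums: the middle 50% of the 135 regions ran from 0.544 to 1.28 for Dzip3, from 0.468 to 1.25 for Ring1B and from 0.572 to 1.25 for ubH2A.

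**Figure D2:**
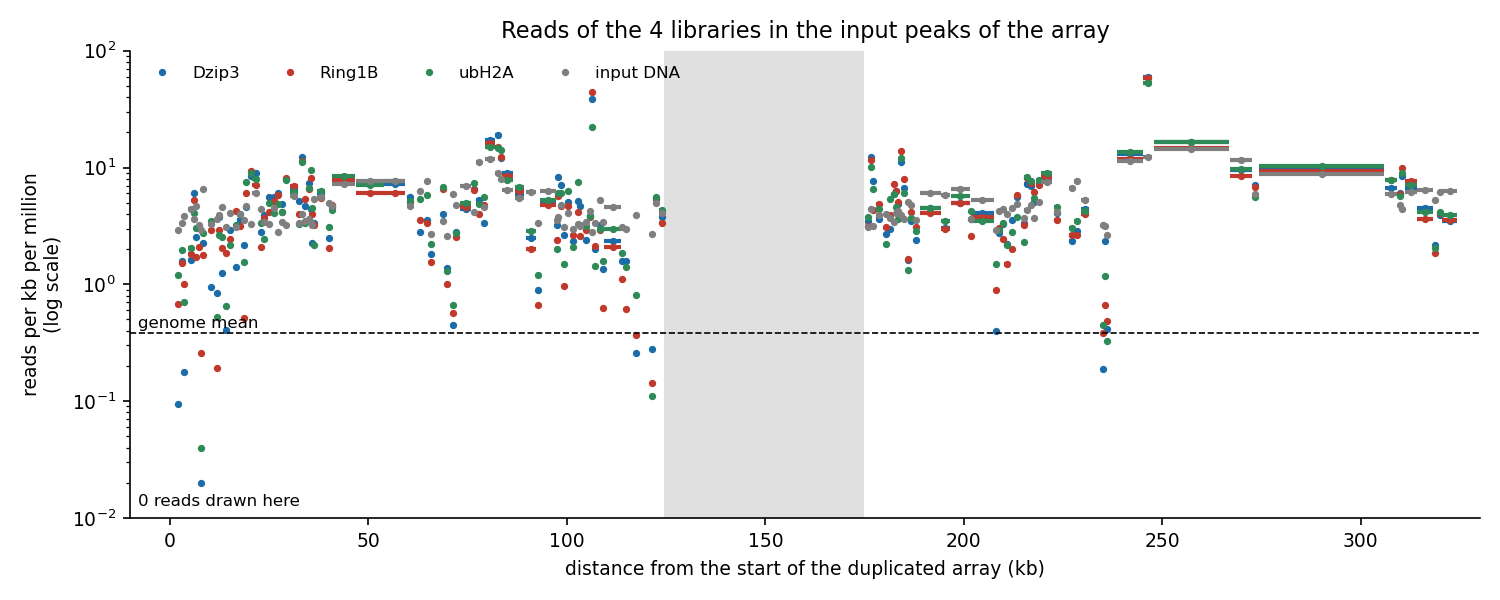
RPM per kb (log axis) of the 4 libraries in the input peaks of the array, against the distance from the start of the array in kb. Points are peak centres, bars span the peaks, the dashed line is the genome mean, and the grey band has no sequence. The grey input points stay above the genome mean throughout, which follows from the choice of input peaks as regions. The ChIP points lie around them, below them in some places and above them in others. The highest Dzip3 value is 59.4 and the highest input value 14.3. A value of 0 reads is drawn near the bottom.

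Within their own peaks the ChIP libraries were near the level of input DNA. A ratio to input was formed for each peak from the reads of the library and of input DNA, both scaled to RPM. For Dzip3 the median ratio over 203 peaks was 1.18 (95% order-statistic interval 1.09 to 1.27), against 11.2 over the 360 Dzip3 peaks on the rest of chromosome 8. For Ring1B it was 1.09 (1.01 to 1.24) in the window and 21.6 on the rest of the chromosome (623 peaks). For ubH2A it was 1.06 (1.00 to 1.18) and 7.93 (457 peaks). Here and below, the rest of chromosome 8 includes the 30 Dzip3, 31 Ring1B and 35 ubH2A peaks of the array beyond the window. Values without these peaks were not taken. A ratio of at least 2 was found for 33 Dzip3 peaks of the window, a share of 16.3% (95% Wilson interval 11.8% to 21.95%), while 83.3% of all Dzip3 peaks reached it. For Ring1B the count was 27 (13.6%), against 89.8% of all Ring1B peaks. For ubH2A it was 23 (11.9%), against 77.5% of all ubH2A peaks. The window's share was below that of the whole list for each ChIP library. The ratio was below 1 for 78 Dzip3, 84 Ring1B and 82 ubH2A peaks. The median Dzip3 peak of the array held 184 Dzip3 and 145 input reads, while the median Dzip3 peak on the rest of the chromosome held 83 and 7.

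**Figure D3:**
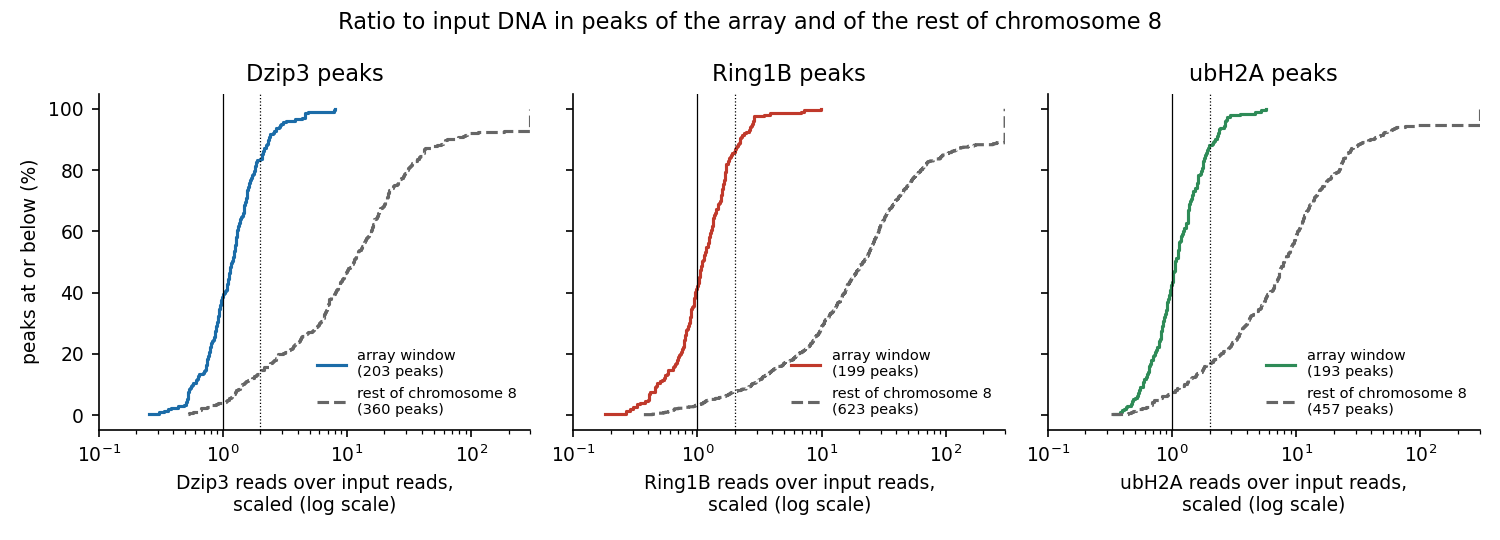
Cumulative share of peaks (%) against their ratio to input DNA (log axis) for Dzip3, Ring1B and ubH2A peaks. Solid lines are the window, dashed lines the rest of chromosome 8, and vertical lines mark ratios of 1 and 2. The rest includes the part of the array beyond the window. Ratios beyond the axis, including peaks with no input read, are drawn at its right edge. The solid curves rise around 1 and the dashed ones further right.

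The 3 ChIP libraries also differed little from each other in the array. In Dzip3 peaks the log2 ratio of Dzip3 to Ring1B had a median of 0.11 with quartiles of -0.08 and 0.36, and 98.0% of the peaks were within 1 log2 unit of equality. On the rest of chromosome 8 the median was 0.47 with quartiles of -0.14 and 1.26, and 58.1% were within 1 unit. In Ring1B peaks the log2 ratio of Ring1B to ubH2A was -0.07 in the array (98.995% within 1 unit) and 1.83 on the rest of the chromosome (30.2% within 1 unit).

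The ratio to input rose with the GC content of the peak. Across the 203 Dzip3 peaks Pearson's r between GC content and the log2 ratio was 0.81 and Spearman's rho was 0.78, for 199 Ring1B peaks they were 0.84 and 0.81, and for 192 ubH2A peaks 0.79 and 0.77. Without the 2 peaks farthest from the median GC content r was 0.78, 0.81 and 0.77. In the input peaks, whose positions no ChIP library set, r was 0.80 for Dzip3 (134 peaks with Dzip3 reads), 0.88 for Ring1B and 0.84 for ubH2A (135 each). The peaks share their libraries and many are copies of each other, so they are not independent. On the rest of chromosome 8 the same correlation was 0.47 over 334 Dzip3 peaks, 0.67 over 555 Ring1B peaks and 0.54 over 433 ubH2A peaks with reads in both libraries. The part of GC content in the ratios of the array was not tested.

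When the Dzip3 peaks were ordered by GC content, the 50 with the lowest (31.5% to 40.5%) had a median ratio of 0.736, and none reached 2. The 51 with the highest (47.0% to 66.5%) had a median ratio of 1.89, and 24 of the 33 peaks with a ratio of at least 2 were among them. The median of input reads per kb in these low and high sets was 532 and 235. Ring1B peaks split the same way gave 0.574 in the lowest set (0 of 49 peaks at 2 or more) and 1.71 in the highest (21 of 50). For ubH2A the values were 0.660 (1 of 48) and 1.73 (16 of 48).

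**Figure D4:**
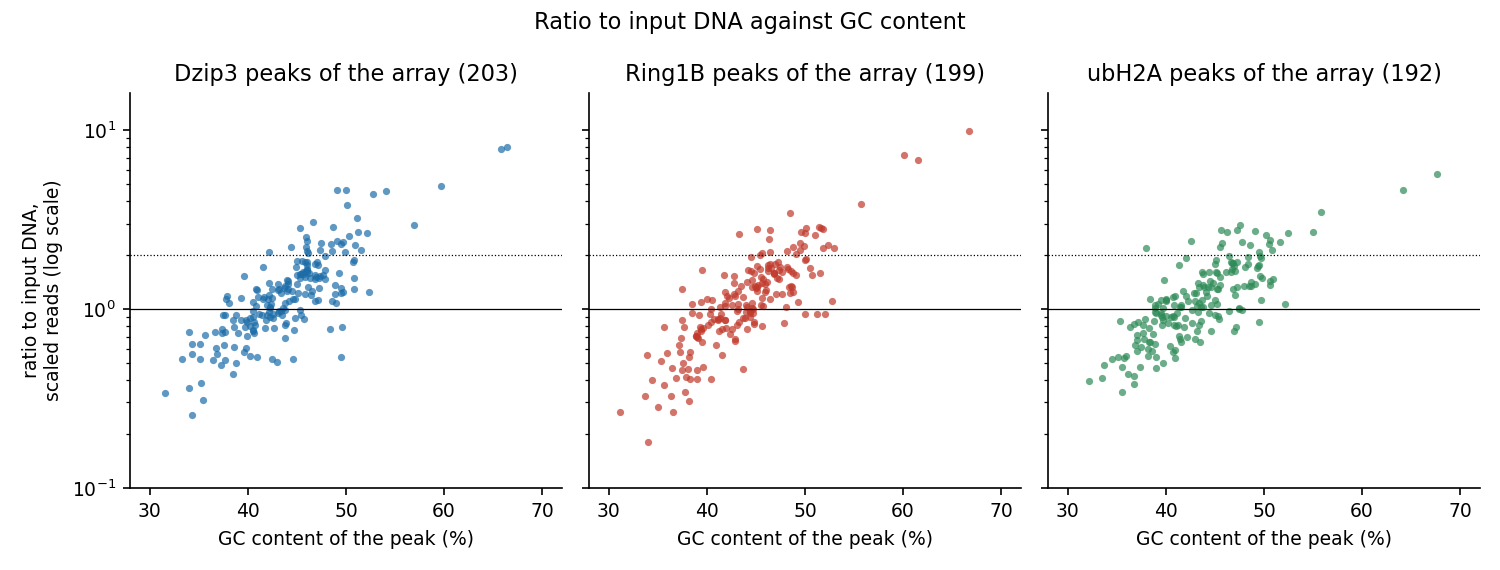
Ratio to input DNA (log axis) against the GC content (%) of each Dzip3, Ring1B and ubH2A peak of the array. Each point is 1 peak, and horizontal lines mark ratios of 1 and 2. In each panel the points climb from under 1 at low GC content to above 1 at high GC content.

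The highest peak of all 3 ChIP lists was the same place. The Dzip3 peak at chr8:19923676-19930712 reached 24.8 RPM, the Ring1B peak at chr8:19923067-19930334 reached 22.5 RPM and the ubH2A peak at chr8:19923044-19930731 reached 20.7 RPM. The next highest Dzip3 peak had 7.73 RPM and the next Ring1B peak 6.82 RPM. Summed over the Dzip3 peak, reads came to 316 RPM for Dzip3, 295 for Ring1B, 297 for ubH2A and 125 for input DNA, which gave ratios to input of 2.53, 2.36 and 2.38. The 3 ChIP values lay close together and all above input DNA. The place is intronic in 2610005L07Rik, annotated as a processed transcript, and in the lincRNAs AC152164.1 and Gm17279.

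The ratio was higher in 1 input peak at this place than in those on either side. The highest input peak of the window, chr8:19923652-19925879 with 4.72 RPM, had 132 Dzip3, 129 Ring1B, 118 ubH2A and 27.2 input RPM, or ratios of 4.87, 4.74 and 4.32. In the input peak before it (chr8:19916985-19923586) the ratios were 1.15, 1.04 and 1.18, and in the one after it (chr8:19926272-19945346) 1.15, 1.04 and 1.16. The latter is 19074 bp long, against 2227 bp for the high one, and the highest peaks of the 3 ChIP lists run on into it. Its ratios are averages over that length, so these regions do not show where the ratio falls. The tandem repeat of 156 bp printed above ran over 2694 bp, from chr8:19924484 to 19927177, partly inside the high input peak. The median 31-base word of the repeat occurred 25 times in mm9, and 77.2% of its words also occurred on unplaced sequence. In it, 1787 positions began a stretch of 50 bases that matched by over 80% the sequence 156 bp further on. The stretch of the inverted copy that aligns with it, chr8:19759095-19760410, held 238 such positions.

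That inverted copy lies under the second highest peaks of Dzip3 (chr8:19758410-19760338, 7.73 RPM) and Ring1B (chr8:19757762-19760821, 6.82 RPM). The Dzip3 peak there had 36.3 Dzip3, 34.0 Ring1B, 28.8 ubH2A and 23.1 input RPM. The next highest of both lists again overlapped, Dzip3 at chr8:19762644-19764182 (5.31 RPM) and Ring1B at chr8:19762645-19764323 (5.00 RPM). In the ubH2A list the highest peak was followed by chr8:19921952-19922909 (5.53 RPM), which had a ratio to input of 1.01, and chr8:19939146-19944155 (4.45 RPM). The input peaks that came next by height were chr8:19926272-19945346 (3.87 RPM) and chr8:19916985-19923586 (3.56 RPM), on either side of the highest.

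Among its own peaks in the window, each ChIP library had its highest ratio to input at CpG-rich sequence (observed over expected CpG of at least 0.6). This was not at its highest peak. In input peaks the ratios reached 13.8 for Dzip3, 15.7 for Ring1B and 8.03 for ubH2A. The Ring1B peak at chr8:19784572-19785329, over the pseudogene Gm10060, had a ratio of 9.86, from 613 Ring1B, 563 Dzip3, 416 ubH2A and 58 input reads. Scaled, these were 11.8 RPM for Ring1B, 10.6 for Dzip3, 6.21 for ubH2A and 1.201 for input DNA. Its GC content was 66.7%, against a median of 44.2% over the Ring1B peaks of the window. Its ratio of observed to expected CpG was 0.859, against a median of 0.128. Not every CpG-rich peak had a high ratio: the Ring1B peak chr8:19885668-19885868 (observed over expected 0.649, 43.5% GC) had 1.34.

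Both copies of this sequence carried peaks of the 3 ChIP libraries, and no input peak covered their centre. At the start of 6820431F20Rik, the Ring1B peak chr8:19892284-19893092 had 10.2 Ring1B, 6.85 Dzip3, 5.28 ubH2A and 1.49 input RPM and a Ring1B ratio of 6.83. At the start of 2610005L07Rik, just beyond the upper end of the window, the Ring1B peak chr8:20019614-20020411 had 12.9 Ring1B, 13.0 Dzip3, 7.94 ubH2A and 1.30 input RPM and a Ring1B ratio of 9.92. At all 3 places input DNA was lowest and ubH2A the lowest of the ChIP libraries. Among their own peaks of the array inside the window, Dzip3 and ubH2A had their 2 highest ratios at the Gm10060 and 6820431F20Rik sites. These were 7.87 and 8.02 for Dzip3 and 5.69 and 4.63 for ubH2A. Outside these places the highest ratio there was 4.88 for Dzip3 and 3.49 for ubH2A, while a Ring1B peak between genes, chr8:19698790-19699096, had 7.27 (257 Ring1B and 33 input reads, 60.1% GC), above the 6820431F20Rik site. Its ratio of observed to expected CpG was 0.118. The Dzip3 value of 4.88 was from a peak at the same place. The 1 ubH2A peak before the array had a ratio of 5.19.

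Neighbouring peaks were about 1 kb apart. The median distance between centres was 910.5 bp for Dzip3 (95% order-statistic interval 823.5 to 1012, 201 distances), 923 bp for Ring1B (863 to 1085, 197 distances), 1001 bp for ubH2A (925 to 1146, 190 distances) and 1237 bp for input DNA (1086 to 1502, 135 distances). In classes of 250 bp the commonest distance was from 500 to 750 bp for each ChIP list and from 750 to 1000 bp for input DNA. The class held 44, 43, 40 and 24 distances. The SD of the Dzip3 distances was 1.02 times their mean, that of Ring1B 0.930 times and that of ubH2A 0.952 times, so the spacing was uneven. For input DNA it was 1.82 times. The input distances include those to a peak listed inside the internal gap, the longest being 41872 bp, while distances across the gap were left out for the ChIP lists. The edges of neighbouring Dzip3 peaks were 261.5 bp apart at the median, and peaks were 438 bp long at the median, against 259 bp for Dzip3 peaks elsewhere.

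The reference sequence recurred at 127 kb and the peaks of the window did not stand out there. Direct pairs of the same 31-base word numbered 61061 in the array, and 59.4% of them were 127 to 128 kb apart, with 127249 bp the commonest single distance over 1 kb. Inverted pairs, which have no fixed distance, made up 68.0% of all pairs. Pairs of Dzip3 peaks 127 to 128 kb apart numbered 56, which was 0.724 times the count for as many peaks spread evenly over the same span (counting interval 0.547 to 0.941). The 20 neighbouring bins had a mean of 0.727. For Ring1B the values were 0.727 and 0.719, for ubH2A 0.855 and 0.902, and for input DNA 0.754 and 0.783. Words were counted up to the large gap, but peaks only up to 20 Mb. The second direct copy, chr8:19980142-20030166, lies only in part inside the window, and its part beyond gave no pairs of peaks. The counts therefore cannot tell whether peaks recur with the sequence. At short range, peaks 1 to 2 kb apart were 1.30 times the even count for Dzip3, 1.33 for Ring1B, 1.34 for ubH2A and 1.49 for input DNA. The even count also spreads peaks over the internal gap, where the ChIP lists have none. This makes it too low at short distances, so ratios above 1 there do not measure clustering alone.

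**Figure D5:**
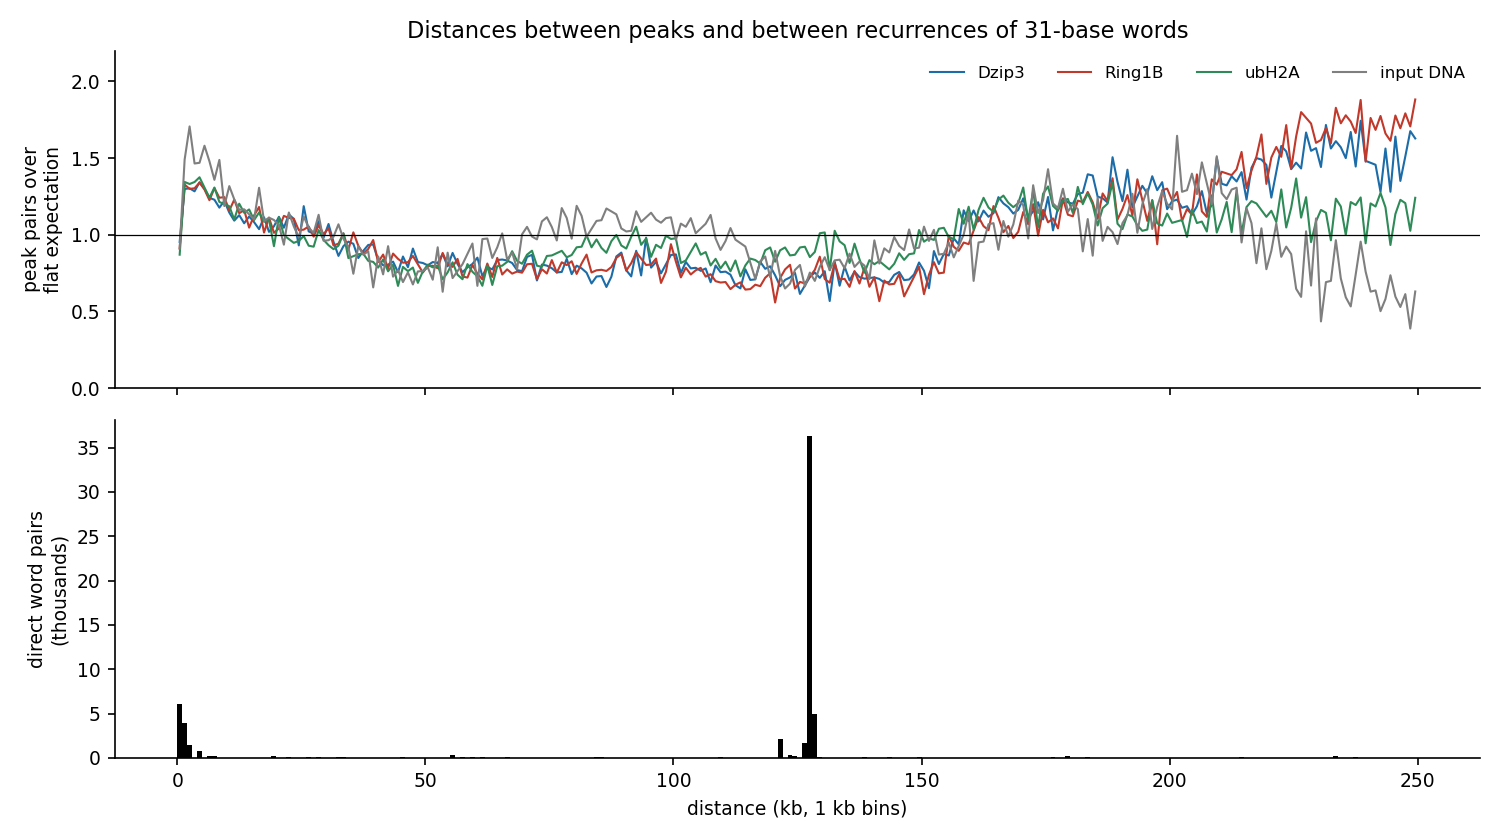
Upper panel, pairs of peaks in 1 kb bins of distance over the count for evenly spread peaks, for the 4 lists. Lower panel, direct pairs of the same 31-base word of the reference (in units of 1000) in the same bins, both drawn up to 250 kb. The words have a spike at 127 to 128 kb, while the curves of the peaks pass that distance without one. Words were counted over the whole array and peaks only within the window.

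Peaks were then carried from 1 copy of each block to the other through the alignment, including the array beyond the window, and both directions were counted. Of 347 Dzip3 peak centres carried over, 209 (60.2%) fell in a Dzip3 peak of the other copy, where Dzip3 peaks covered 46.0% of the sequence on average. For Ring1B this was 58.2% against 45.03% covered, for ubH2A 69.1% against 57.4% and for input DNA 86.8% against 84.3%. The share differed between the directions within a block. In the longest block 47 of 52 Dzip3 centres (90.4%) fell in a peak when carried from the left copy to the right one, where peaks covered 69.6%, and 28 of 55 (50.9%) the other way, where they covered 40.9%. Heights of the peaks paired in this way were alike only in part. Within 1 log2 unit were 69.1% of 123 Dzip3 pairs, 70.5% of 112 Ring1B pairs, 57.5% of 146 ubH2A pairs and 46.6% of 146 input pairs. The ratio to input of the 2 copies had Pearson's r of 0.61 (Dzip3), 0.72 (Ring1B) and 0.56 (ubH2A) after taking log2. These points share a library and nearly the same sequence, and how reads were divided between copies was not tested. A broad peak was the partner of many narrow ones, as the ubH2A peak at chr8:19969983 (3.49 RPM) was. The summit of such a peak need not lie at the matching place. The pairs are thus not independent, and their likeness also depends on how peaks were split or joined.

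The levels on both sides of the internal gap were also compared. In the input peaks left of the gap, input DNA had 5.76 and Dzip3 had 5.72 RPM per kb. To the right of it they had 8.28 and 9.47 on the same scale, so both were higher there. A ratio of at least 2 was found for 22 of 90 Dzip3 peaks left of the gap and 11 of 113 right of it. For Ring1B this was 16 of 81 and 11 of 118, and for ubH2A 15 of 95 and 7 of 97.

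The peaks of the lists lay on top of each other. Of the 203 Dzip3 peaks, 180 (88.7%, 95% Wilson interval 83.6% to 92.3%) shared 1 bp or more with a Ring1B peak, and 178 of the 199 Ring1B peaks (89.4%) did so with a Dzip3 peak. An input peak was met by 198 Dzip3 peaks (97.5%), 196 Ring1B peaks (98.5%) and 186 ubH2A peaks (96.4%). On the rest of chromosome 8 these shares with input peaks were 24.4%, 14.3% and 24.7%. There 52.5% of Dzip3 peaks met a Ring1B peak and 29.1% of Ring1B peaks met a Dzip3 peak. Input peaks covered 78.0% of the sequenced array, and the overlaps were not set against a chance value. All 4 lists met at 87.2% of Dzip3 peaks, while 29 of the 136 input peaks overlapped no ChIP peak. Among the 33 Dzip3 peaks with a ratio of at least 2, 19 overlapped a Ring1B peak with such a ratio. No share from the rest of the chromosome stands beside these last counts, so they are a description.

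The annotation of mm9 (GENCODE vM1) has 34 genes that overlap the window, 18 of them protein-coding. The 25 genes before the array held no peak of any list in their bodies. The 678 kb before the array held 1 peak in all, and no share over all genes stands beside this count. It is therefore not a result about these genes. The 25 genes are the 12 beta-defensins Defb38, Defb39, Defb12, Defb34, Defb14, Defb4, Defb6, Defb46, Defb5, Defb3, Defb8 and Defb7, the 2 sperm-associated antigen genes Spag11a and Spag11b, the predicted gene Gm11051 and 10 pseudogenes, 4 of them related to alpha-defensins. From the start of Defb7 the nearest Dzip3 peak was 187311 bp away.

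All 9 genes in the array, where the lists covered 46.9% to 78.0% of the sequence, held peaks of all 4 lists. The protein-coding ones are named as predicted genes or cDNA clones. Gm6483 (chr8:19682268-19698275, plus strand) held 7 Dzip3, 8 Ring1B, 10 ubH2A and 16 input peaks. In 4930467E23Rik (chr8:19729746-19752236, plus strand) there were 15, 14, 17 and 11. In Gm15319 (chr8:19933242-19958788, minus strand) there were 24, 28, 14 and 4, and input peaks covered 98.0% of it. Within 1 kb of the start of Gm6483 the highest ratio to input was 2.68 for a Dzip3 peak, 2.85 for a Ring1B peak and 2.60 for a ubH2A peak. At that of 4930467E23Rik the highest ratios within 1 kb were 1.84, 1.31 and 1.22, and at that of Gm15319 1.85, 1.76 and 1.60.

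The other 6 are non-coding. The 2 annotated as Gm10060 are a pseudogene of 0.566 kb and a lincRNA of 8.751 kb. The processed transcripts 6820431F20Rik and 2610005L07Rik and the lincRNAs AC152164.1 and Gm17279 run over 34.9 to 157 kb and overlap each other, so 1 peak can count for several of them. 2610005L07Rik alone held 120 Dzip3, 126 Ring1B, 106 ubH2A and 46 input peaks, those beyond the window included. By position, 39 Dzip3 peaks touched an exon, 96 lay in introns and 68 between genes. A start of transcription lay within 1 kb of 16 Dzip3, 15 Ring1B, 17 ubH2A and 16 input peaks. Near a start the median Dzip3 ratio was 1.32 over 16 peaks, and elsewhere 1.17 over 187.

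Peaks of all 4 lists, input DNA included, held fewer unique words than the sequence between them. Words that occur once in mm9 made up 10.4% of Dzip3 peaks and 14.7% of the sequence between them. For Ring1B these shares were 10.6% and 14.5%, for ubH2A 10.1% and 16.3%, and for input DNA 10.3% and 21.3%. Of the 203 Dzip3 peaks, 55 held no such word at all. Peaks with a ratio of at least 2 had more unique words, with medians of 14.5% against 5.85% for Dzip3, 18.6% against 5.33% for Ring1B and 17.2% against 5.88% for ubH2A. Input reads per kb went the other way, with medians of 154 and 375 in the Dzip3 peaks at or above 2 and under it. Input DNA is the divisor of the ratio that made these groups, so lower input in the first group follows at least in part from the split. The part of unique sequence in the ratios was not tested.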

How the data were processed

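Dzip3, Ring1B, ubH2A and input DNA libraries of E14 mES cells (1 each) were analysed. The methods name fragmentation with micrococcal nuclease and the labels a Picoruptor. The authors aligned reads to mm9 with 1 mismatch allowed and called peaks for each library in Partek Genomics Suite (FDR 0.1). How reads with several matches were placed is not given in the sources used here. The authors deposited counts of reads of each library per peak, the height in RPM, a scaled fold (ratio) over input DNA and the percent of a peak covered by peaks of other lists. The p-values that were also deposited hold the authors' comparisons and were not used. A row without 18 columns was left out, 1 each in the ubH2A and input lists, neither on chromosome 8.

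Library sizes were taken as reads over RPM (Dzip3 53.3 M, Ring1B 51.8 M, ubH2A 67.0 M, input DNA 48.3 M), and reads were scaled to them. The methods name a smaller depth of uniquely mapped reads. With 1 library per target, no test was run. The reference was NCBIM37 (mm9) with GENCODE vM1. Words were counted over the genome on both strands, and the array was aligned to itself with minimap2 2.31. Genes named are all protein-coding genes of the window and others with a peak at their start, and peaks named are the 3 highest by RPM per list. Others were chosen after their values were seen. The members and lists were chosen with earlier results of these data known. Alternatives were merged peaks, stronger peaks, other bins, scalings, overlaps, distances and word lengths. On simulated data the code found 120 of 120 planted overlaps and a recurrence planted at 90 kb. The software was matplotlib 3.10.9, numba 0.67.0, scipy 1.17.1, pandas 2.3.3 and numpy 2.4.6 under Python 3.11.15.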

Additional observations from a re-analysis of the deposited data

How the results depend on the processing

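No paired analysis was possible because each target has a single library and no replicate. The 69 alternatives left 36 values within their interval, or within 1.5 times for counts, and moved 33. Peaks closer than 500 bp were merged to 64 Dzip3, 68 Ring1B, 63 ubH2A and 36 input peaks, with median distances of 3061, 3105, 2794 and 3483 bp, which follows from merging. For the stronger 50% of peaks these distances were 1427, 1546, 1930 and 2619 bp. Pairs at 127 kb over the even count were 0.303 for Dzip3 and 0.463 for Ring1B among the stronger 50%, and 1.05 for Dzip3 and 1.22 for input DNA after merging; the cause was not tested. Summed reads gave ratios to input of 1.35, 1.28 and 1.23 for Dzip3, Ring1B and ubH2A, and 1.2, 1.14 and 1.11 without the highest peak, an alternative chosen after seeing the data. The authors' fold gave a median of 0.966 for ubH2A. Scaled to the median of the rest of chromosome 8, the ratios were 0.105, 0.0503 and 0.134, which follows from the higher ratios there. Among the stronger 50%, an input peak was overlapped by 89.2% of Dzip3, 87.1% of Ring1B and 84.5% of ubH2A peaks. Of the genes with a peak, 3 were protein-coding. Within 4 kb of a start lay 54 Dzip3, 47 Ring1B, 47 ubH2A and 38 input peaks. Words of 36 and 50 bases were repeated in 84.7% and 77.7%. The copy number in the cells, the placement of reads with several matches and the absence of replicates limit all levels.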

Other observations

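Input DNA was above the ChIP libraries in a group of input peaks. In 19 of the 135 input peaks in sequenced DNA, all 3 ChIP libraries were at or under 0.5 times input DNA. Summed over these 19, the Dzip3 ratio to input was 0.363, the Ring1B ratio 0.317 and the ubH2A ratio 0.402, and over the other 116 they were 1.13, 1.06 and 1.13. The 19 had a median GC content of 35.5%, the others 42.7%. Of the 19, 13 lay left of the internal gap and 6 right of it, and 12 overlapped no ChIP peak, against 16 of the other 116. The lowest Dzip3 ratio was at chr8:19686142-19686519 in an intron of Gm6483 (24.7% GC), with 53 input, 5 Ring1B, 1 ubH2A and 0 Dzip3 reads, where a count of 0 allows up to 3 reads. Input peak chr8:19913440-19913640 had 31 input, 2 Dzip3, 4 Ring1B and 6 ubH2A reads. The 19 peaks were chosen by these ratios after the values were seen, so the ratios are a description.

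The input list holds 1 peak inside the internal gap of the assembly, chr8:19843997-19844320, 40.9 kb from its left and 8.81 kb from its right edge. It is listed with a height of 22 reads (0.455 RPM) and with 0 reads of all 4 libraries in it. The ChIP lists have no peak in the gap. The window holds no other peak without reads of its own library, and the whole lists hold 2 (Dzip3), 1 (Ring1B), 1 (ubH2A) and 2 (input DNA). The cause was not tested.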
